A study of Mus musculus with 10 samples.

Results

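Cped1 and its nearest neighbours on mouse chromosome 6 were followed in RNA-seq data from NIH3T3, a fibroblast line that was derived from mouse embryos. The set was defined by position: the annotation (GENCODE M21, GRCm38) places 5 protein-coding genes in a row, in the order Tspan12, Ing3, Cped1, Wnt16 and Fam3c, between Kcnd2 and Ptprz1. Each symbol was looked up among the 18430 rows of the expression table. Tspan12, Ing3, Cped1 and Fam3c had 1 row each (ENSMUSG00000029669, ENSMUSG00000029670, ENSMUSG00000062980 and ENSMUSG00000029672), and all 4 met the filter that left 12842 tested rows. No row carried the symbol or the identifier of Wnt16, so Wnt16 is not analysed here.

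The study holds 10 libraries. There are 4 clones stably overexpressing FOXP2-CPED1 (a FOXP2 arrangement, by the series title), 4 clones stably overexpressing FOXP2, and, as controls, 1 culture of parental cells and 1 of cells stably carrying the vector. All are NIH3T3 fibroblasts, and each clone or control was sequenced once; p-values therefore measure the spread between these cultures. The labels do not call the controls clones, and an effect of clonal derivation cannot be told apart from that of the introduced gene where clones are set against controls. Neither the species of the introduced sequences nor the stretch of CPED1 they hold is stated in the labels. The mouse Cped1 row may or may not count reads of the construct, and it does not check the labels.

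CPED1 is named for a cadherin-like and a PC-esterase domain, and little is known of what the protein does. In humans, the stretch that holds CPED1, WNT16 and FAM3C is known for its association with bone mineral density. Of the neighbours, Tspan12 encodes a tetraspanin of the cell membrane that helps the receptor Frizzled-4 respond to Norrin in retinal vessels. Ing3 encodes a nuclear reader of methylated histone H3 in the NuA4/TIP60 acetyltransferase complex. Wnt16 encodes a secreted Wnt ligand with a known role in cortical bone of mice, and Fam3c encodes a secreted cytokine-like protein also called ILEI. FOXP2 is a forkhead transcription factor, a class that binds short sites around a TGTTTA core.

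The promoters are shown because FOXP2 is a DNA-binding factor and because the measured genes start in stretches of unlike composition. All 5 genes matched the RefSeq promoter table (GRCm38.p6), which gives 250 bases before and 50 after each start; those of the 4 measured genes are printed 5′ to 3′ on the strand of the gene. Capitals mark matches, on either strand, to TGTTTA or to the longer forms TATTTAT and also TATTTGT. The windows lie at chr6:21852484-21852783 (minus strand, Tspan12), chr6:21949321-21949620 (plus, Ing3, the first of 2 starts listed), chr6:21985660-21985959 (plus, Cped1) and chr6:22356032-22356331 (minus, Fam3c).
Tspan12: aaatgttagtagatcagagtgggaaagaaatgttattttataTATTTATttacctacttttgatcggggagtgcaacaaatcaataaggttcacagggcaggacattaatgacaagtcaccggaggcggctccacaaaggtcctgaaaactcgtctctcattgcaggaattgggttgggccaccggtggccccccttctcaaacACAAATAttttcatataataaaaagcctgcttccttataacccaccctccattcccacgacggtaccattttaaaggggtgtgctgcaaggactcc
Ing3: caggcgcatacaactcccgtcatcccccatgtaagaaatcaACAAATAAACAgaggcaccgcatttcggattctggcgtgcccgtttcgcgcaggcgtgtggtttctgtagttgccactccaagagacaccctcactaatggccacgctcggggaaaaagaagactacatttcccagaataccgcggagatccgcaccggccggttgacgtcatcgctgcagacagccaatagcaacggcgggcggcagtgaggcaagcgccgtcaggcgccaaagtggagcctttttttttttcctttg
Cped1: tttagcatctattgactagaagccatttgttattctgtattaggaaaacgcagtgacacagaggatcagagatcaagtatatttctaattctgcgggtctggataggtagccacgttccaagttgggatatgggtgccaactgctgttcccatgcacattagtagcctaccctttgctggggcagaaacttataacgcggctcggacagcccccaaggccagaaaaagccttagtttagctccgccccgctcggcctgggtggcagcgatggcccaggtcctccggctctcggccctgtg
Fam3c: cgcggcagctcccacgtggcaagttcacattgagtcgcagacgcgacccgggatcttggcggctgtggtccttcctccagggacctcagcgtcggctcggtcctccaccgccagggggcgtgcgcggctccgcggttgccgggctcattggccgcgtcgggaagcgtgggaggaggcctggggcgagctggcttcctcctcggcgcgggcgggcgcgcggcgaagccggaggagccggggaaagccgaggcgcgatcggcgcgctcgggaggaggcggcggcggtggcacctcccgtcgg

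The Tspan12 window held 1 match to TATTTAT and 1 to TATTTGT. The Ing3 window held a match to TATTTGT and one to TGTTTA, which overlap. The windows of Cped1 and Fam3c held 0 matches to these letters. Among 27025 promoters of the same length, 13.4% held a match to TGTTTA, 5.75% held one to TATTTAT, 3.72% held one to TATTTGT and 20.2% held at least 1 of the 3. Base composition also differed: the Fam3c window was 75.0% G or C with 45 CpG dinucleotides, more CpG than 98.1% of promoters, while the Cped1 window was 52.3% G or C with 12 CpG, beside medians of 52.7% and 7. A match is a description of the letters and not a measured site of binding.

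Levels are the authors' RPKM, reads scaled by transcript length and by library size, so they can be set against each other between genes. Cped1 stood at 16.8, 21.5, 25.4 and 6.69 RPKM in FOXP2-CPED1 clones 1 to 4, at 31.0, 6.43, 16.3 and 25.8 RPKM in FOXP2 clones 1 to 4, and at 24.2 RPKM in parental and 27.0 RPKM in vector cells. FOXP2-CPED1 clone 4 and FOXP2 clone 2 were low, and the other 6 clones lay on both sides of the controls. The groups overlapped in every comparison.

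Tspan12 stood at 5.05, 4.41, 5.24 and 8.49 RPKM in FOXP2-CPED1 clones 1 to 4, at 6.27, 5.02, 6.15 and 9.02 RPKM in FOXP2 clones 1 to 4, and at 9.27 RPKM in parental and 6.79 RPKM in vector cells. Its high clones were number 4 of each construct, and both were within the range of the controls. Ing3 stood at 8.43, 7.82, 11.2 and 7.15 RPKM in FOXP2-CPED1 clones 1 to 4, at 11.8, 9.89, 12.2 and 11.5 RPKM in FOXP2 clones 1 to 4, and at 9.51 RPKM in parental and 11.2 RPKM in vector cells. It was the steadiest member, and 3 of the FOXP2-CPED1 clones were below all FOXP2 clones and both controls.

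Fam3c stood at 116.0, 66.4, 91.3 and 55.0 RPKM in FOXP2-CPED1 clones 1 to 4, at 67.8, 84.0, 134.3 and 58.9 RPKM in FOXP2 clones 1 to 4, and at 61.9 RPKM in parental and 65.9 RPKM in vector cells. FOXP2-CPED1 clone 1 and FOXP2 clone 3 were well above the controls, and clone 4 of each construct was a little below them. These 2 high clones for Fam3c are not the 2 low clones for Cped1.

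**Figure D1:**
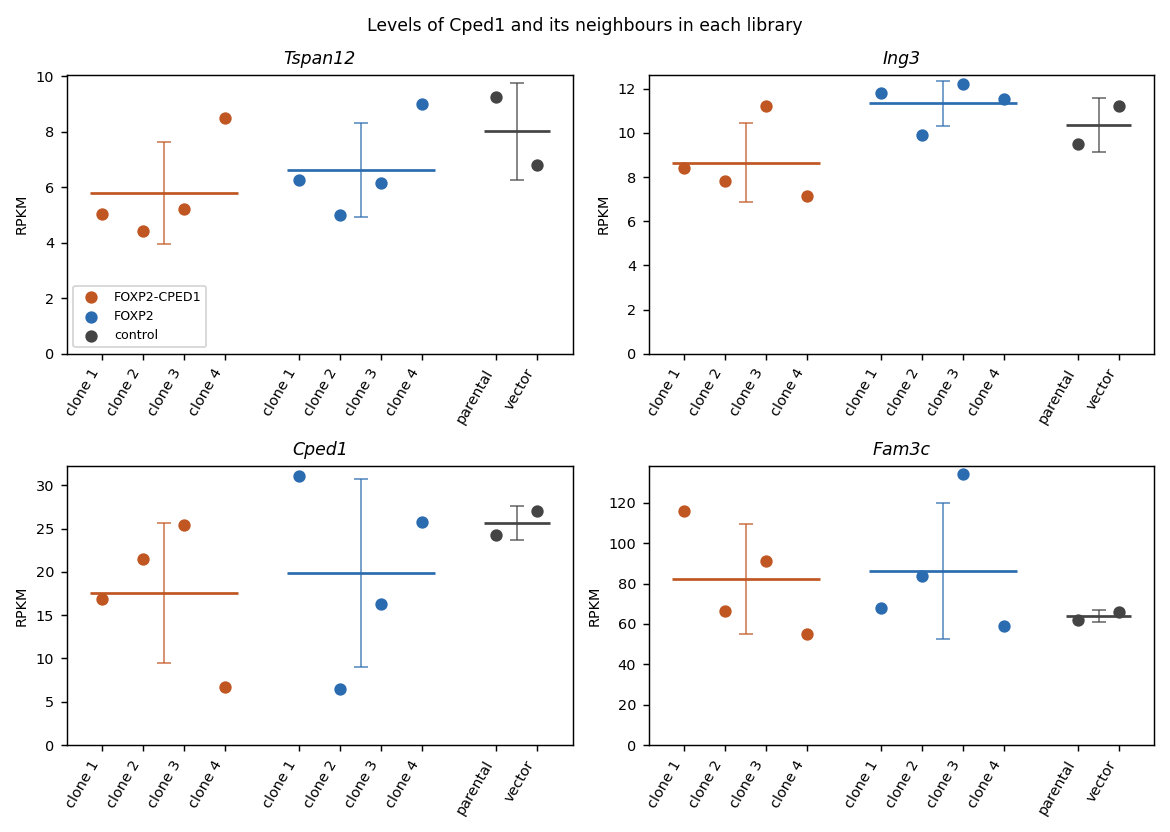
RPKM of Tspan12, Ing3, Cped1 and Fam3c in each library, as points for FOXP2-CPED1 clones, FOXP2 clones and the controls, with the group mean as a line and the SD as a bar (n = 4, 4 and 2). Cped1 is low in FOXP2-CPED1 clone 4 (6.69 RPKM) and FOXP2 clone 2 (6.43 RPKM), while Fam3c is high in FOXP2-CPED1 clone 1 (116.0 RPKM) and FOXP2 clone 3 (134.3 RPKM).

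The order of the levels was Fam3c, Cped1, Ing3, Tspan12 in most libraries. Fam3c was above Cped1 in 10 of 10 libraries. Cped1 was above Ing3 in 8 of 10, all but FOXP2-CPED1 clone 4 and FOXP2 clone 2, and Ing3 was above Tspan12 in 9 of 10, all but FOXP2-CPED1 clone 4. Over the 10 libraries the levels averaged 80.1 ± 26.5 RPKM for Fam3c, 20.1 ± 8.42 RPKM for Cped1, 10.1 ± 1.79 RPKM for Ing3 and 6.57 ± 1.78 RPKM for Tspan12 (SD, n = 10). The ranges within 1 SD of the mean overlapped for Cped1 and Ing3 and, narrowly, for Ing3 and Tspan12, and did not for Fam3c and Cped1.

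Over all 8 clones, Cped1 had a larger spread than its neighbours, and this rests on FOXP2-CPED1 clone 4 and FOXP2 clone 2. Over the other clones Cped1 ran from 16.3 to 31.0 RPKM. Fam3c ran from 58.9 to 134.3 RPKM over those clones, a wider range relative to its level. On the log2(RPKM + 1) scale, its SD over the 8 clones was 0.81, larger than that of 96.1% of tested rows, and its highest clone was 4.82 times its lowest. The SD was 0.46 for Fam3c (larger than 81.3% of rows), 0.32 for Tspan12 (60.8%) and 0.27 for Ing3 (48.4%), beside a median of 0.28 over all tested rows. Ing3, which lies next to Cped1 on the same strand, therefore varied about as much as the typical row.

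The first comparison asked whether FOXP2-CPED1 changes the level of these genes against the controls. None of the 4 members passed limma's test (adjusted p under 0.05 over all rows), beside 0.350% of tested rows that did. Cped1 averaged 17.6 ± 8.08 RPKM in FOXP2-CPED1 clones and 25.6 ± 1.94 RPKM in controls (SD, n = 4 and 2), a log2 difference of -0.65 ± 0.59 (SE, limma adjusted p = 0.872). Tspan12 averaged 5.80 ± 1.83 and 8.03 ± 1.75 RPKM in the same groups (log2 difference -0.43 ± 0.26, limma adjusted p = 0.804). Ing3 had a log2 difference of -0.25 ± 0.18 and Fam3c one of 0.30 ± 0.35, neither of which passed.

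With FOXP2 alone, again 0 of the 4 members passed against the controls, beside 0.436% of tested rows. Cped1 averaged 19.9 ± 10.8 RPKM in FOXP2 clones and 25.6 ± 1.94 RPKM in controls (log2 difference -0.54 ± 0.59, limma adjusted p = 0.861). Fam3c averaged 86.2 ± 33.7 RPKM in FOXP2 clones and 63.9 ± 2.80 RPKM in controls (0.35 ± 0.35, limma adjusted p = 0.840). The log2 differences of Ing3 (0.12 ± 0.18) and Tspan12 (-0.26 ± 0.26) were no larger than about their standard errors. Set against the controls together, the 8 clones gave 0 of 4 members past the threshold as well, beside 0.537% of tested rows, with log2 differences of -0.60 ± 0.54 for Cped1, -0.34 ± 0.24 for Tspan12, -0.06 ± 0.16 for Ing3 and 0.33 ± 0.32 for Fam3c. These comparisons share the 2 control libraries. For Cped1, leaving out 1 library in turn gave log2 differences from -0.87 to -0.28 with FOXP2-CPED1 and from -0.82 to -0.11 with FOXP2, nearest 0 without the low clone of that construct (FOXP2-CPED1 clone 4 or FOXP2 clone 2).

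Between the constructs, FOXP2-CPED1 against FOXP2, the largest difference relative to its error among the 4 members was that of Ing3. It averaged 8.65 ± 1.79 RPKM in FOXP2-CPED1 clones and 11.4 ± 1.02 RPKM in FOXP2 clones (SD, n = 4 each), a log2 difference of -0.37 ± 0.15. Its unadjusted p from limma was 0.0304 and its adjusted p over all rows 0.9998, and a two-sided exact permutation test gave p = 0.0571, where the smallest p the design allows is 0.0286. FOXP2-CPED1 clone 3 (11.2 RPKM) lay among the FOXP2 clones. The log2 differences of Cped1 (-0.11 ± 0.48), Tspan12 (-0.17 ± 0.22) and Fam3c (-0.05 ± 0.28) were smaller than their standard errors. In this comparison 0 of the 4 members and 0% of tested rows passed by limma, and 278 of 12842 rows had an unadjusted p under 0.05. Two-sided exact permutation p-values of the members against the controls ran from 0.267 to 0.667 over both constructs, where 0.0667 is the smallest possible.

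The next question was whether the neighbours follow Cped1 from clone to clone. Over the 8 clones none of the 3 relations passed a two-sided exact permutation test at 0.05. For Ing3, Pearson's r with Cped1 was 0.53 (exact permutation p = 0.185, n = 8) and Spearman's rho 0.43 (exact permutation p = 0.299). For Tspan12, r was -0.07 (exact permutation p = 0.887) and rho 0.33 (exact permutation p = 0.428). For Fam3c, r was 0.03 (exact permutation p = 0.937) and rho -0.14 (exact permutation p = 0.752).

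The low pair of clones stands apart from the rest in Cped1, so the pooled r leans on it. Over the other 6 clones r was 0.35 for Ing3 (exact permutation p = 0.467), 0.34 for Tspan12 (exact permutation p = 0.515) and -0.80 for Fam3c (exact permutation p = 0.0694). Of those 6 clones, the pair with the least Cped1 had the most Fam3c: FOXP2-CPED1 clone 1 and FOXP2 clone 3 had 16.8 and 16.3 RPKM of Cped1 with 116.0 and 134.3 RPKM of Fam3c, while FOXP2 clone 1 had 31.0 RPKM of Cped1 with 67.8 RPKM of Fam3c. In FOXP2-CPED1 clone 4, by contrast, Cped1 and Fam3c were both low, and in FOXP2 clone 2 Cped1 was low with Fam3c at 84.0 RPKM. The r of all tested rows over the 6 clones was not computed, so -0.80 does not set Fam3c apart from other rows.

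**Figure D2:**
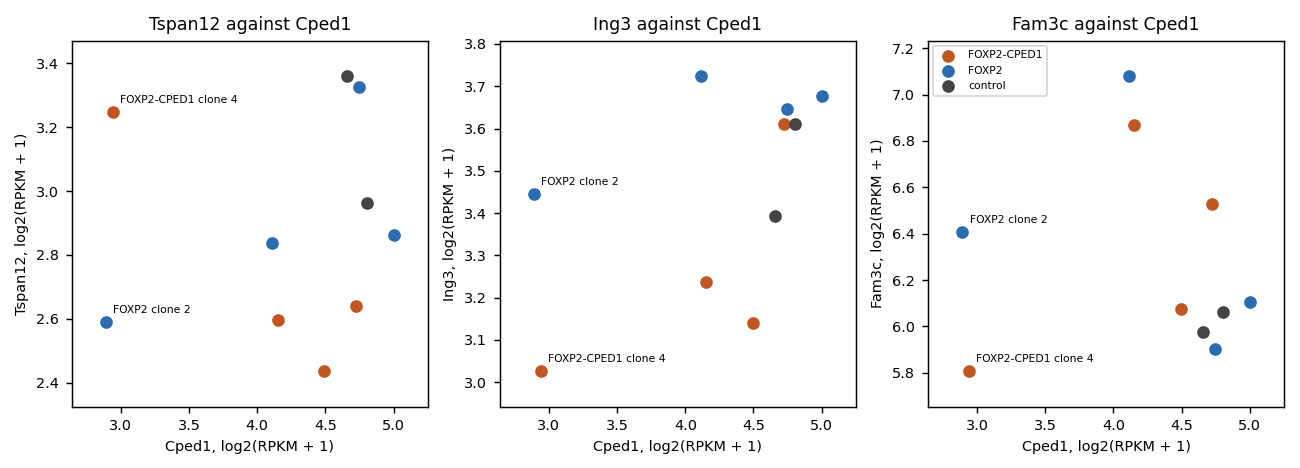
Level of Tspan12, Ing3 and Fam3c against the level of Cped1, both as log2(RPKM + 1), with 1 point per library in the colour of its group; the axes do not start at 0. FOXP2-CPED1 clone 4 and FOXP2 clone 2 stand to the left of all other libraries, and at that low Cped1 level they differ from each other in every neighbour.

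Relations among the neighbours did not pass either. Besides the 3 relations with Cped1, 3 relations among the neighbours were computed over the 8 clones. Pearson's r was 0.12 between Tspan12 and Ing3 (exact permutation p = 0.775), -0.50 between Tspan12 and Fam3c (exact permutation p = 0.209) and 0.33 between Ing3 and Fam3c (exact permutation p = 0.409). The rho values were 0.33, -0.40 and 0.48 in the same order, with exact permutation p = 0.428, 0.327 and 0.243. Leaving out the low pair of clones gave r of 0.68, -0.34 and 0.06 in that order (exact permutation p = 0.144, 0.536 and 0.912).

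The same question was put to all tested rows. In limma fits of each row on the Cped1 level, 2.94% of 12841 rows passed the adjusted threshold, 158 rising with it (1.23%) and 219 falling as it rose (1.71%), and 0 of the 3 neighbours did (limma adjusted p = 0.336 for Ing3, 0.922 for Tspan12 and 0.963 for Fam3c). The median absolute r with Cped1 over all rows was 0.495, and 46.8% of rows had a larger absolute r than Ing3, 93.6% a larger one than Tspan12 and 96.4% a larger one than Fam3c. Of the 600 rows of chromosome 6, 3.00% passed, close to the share over all rows. A share of that size would mostly give 0 calls among 3 genes, so the neighbours are not set apart by this count. The count of passing rows itself was unstable: it was 0 without FOXP2-CPED1 clone 1, 2 or 4 or FOXP2 clone 1 or 2, it was 1 without FOXP2-CPED1 clone 3, 226 without FOXP2 clone 4 and 1367 without FOXP2 clone 3, and it was 0 after centring within constructs. With another member in the place of Cped1, 0 rows followed Ing3, 0 followed Tspan12 and 12 (0.0935%) followed Fam3c by the same test, with 586, 949 and 2336 rows at an unadjusted p under 0.05.

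**Figure D3:**
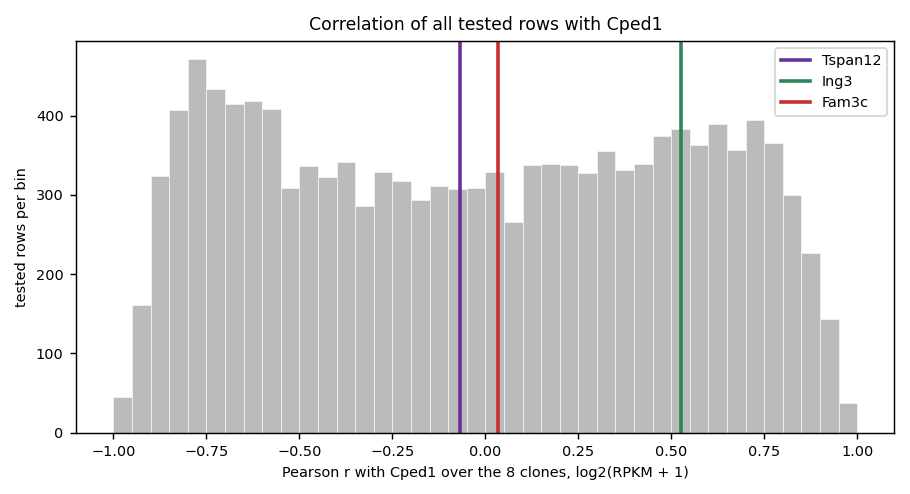
Number of tested rows (vertical axis) by their Pearson r with Cped1 over the 8 clones (horizontal axis), in bins of equal width, with lines at the r of Tspan12 (-0.07), Ing3 (0.53) and Fam3c (0.03). The rows spread broadly over both signs and thin out only close to -1 and 1, and Tspan12 and Fam3c sit in the middle.

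The genes named next moved most closely with or against Cped1. They were taken as the 5 highest and 5 lowest r over the 8 clones, so these r values describe the choice and test nothing. All but Dync1li2 (limma adjusted p = 0.0782) were among the rows that passed the fit on the Cped1 level, a count that was unstable. The highest were Dync1li2, a light intermediate chain of cytoplasmic dynein (r = 0.99), Fbxo32, a muscle-atrophy ubiquitin ligase subunit also called atrogin (0.98), Rora, an orphan nuclear receptor (0.98), Eya1, a transcriptional coactivator and phosphatase (0.98), and Stard9, a kinesin (0.97). The lowest were Drg2, a developmentally regulated GTP-binding protein (-0.99), Cluh, which binds mRNAs of mitochondrial proteins (-0.99), Nol12, a nucleolar protein (-0.98), Gatad1, a zinc finger protein found at chromatin (-0.98), and Eif4e, the cap-binding factor of translation (-0.97).

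Fbxo32 shows the shape: it stood at 3.70, 4.99, 6.77 and 1.96 RPKM in FOXP2-CPED1 clones 1 to 4 and at 7.30, 1.66, 4.80 and 6.11 RPKM in FOXP2 clones 1 to 4. Eif4e was the mirror image, with 58.7, 53.5, 48.6 and 85.9 RPKM in FOXP2-CPED1 clones 1 to 4 and 48.1, 96.2, 53.6 and 51.0 RPKM in FOXP2 clones 1 to 4. Fbxo32 is lowest and Eif4e highest in FOXP2-CPED1 clone 4 and FOXP2 clone 2, the clones with the least Cped1. Over the 6 clones without that pair, which also entered the choice, the r of these 10 genes with Cped1 ran from 0.83 to 0.98 on the positive side and from -0.97 to -0.82 on the negative side, again as a description. They sit on chromosomes 1, 2, 3, 5, 8, 9, 11 and 15, and none on chromosome 6. That chromosome holds 600 of the 12841 rows, so 10 genes would mostly include none of its genes.

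**Figure D4:**
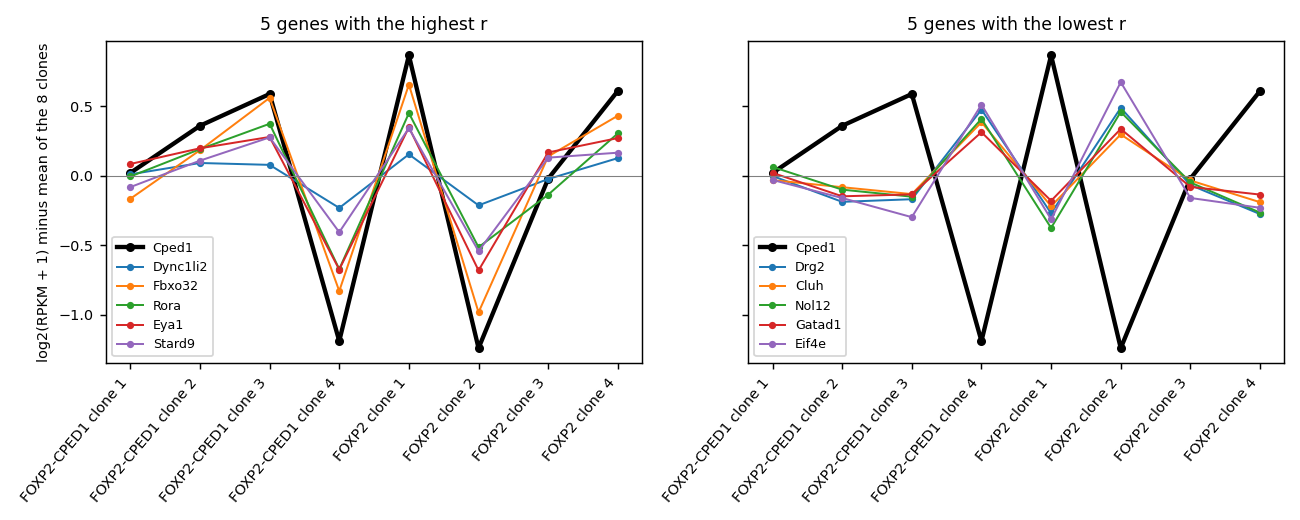
Level of Cped1 (black) and of the 5 genes with the highest and the 5 with the lowest r with it, as log2(RPKM + 1) minus the gene's mean over the 8 clones, by clone. The 5 genes with the highest r are lowest, and the 5 with the lowest r are highest, in FOXP2-CPED1 clone 4 and FOXP2 clone 2, with smaller swings than Cped1.

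Measures of whole libraries that vary with these genes are given beside them. Each principal component of all tested rows was given the sign that rises with Cped1 over the 10 libraries, so its direction follows from that choice. Over the 8 clones, r of Cped1 was 0.72 with the second component (19.4% of variance) and 0.63 with the first (27.4%). For Fam3c, r was 0.76 with the first and -0.49 with the second. Over the 6 clones without the low pair, Cped1 had 0.70 with the second and -0.65 with the first, and Fam3c had 0.94 with the first and -0.89 with the second. Relative depth, read from the steps between low values, ran from 0.912 to 1.31 of the parental library and had r = 0.74 with Tspan12, 0.02 with Ing3, -0.33 with Cped1 and -0.54 with Fam3c. Over the 6 clones its r was 0.69 with Tspan12, 0.75 with Ing3, 0.625 with Cped1, where the sign turned, and -0.35 with Fam3c. The depth of each clone is a rough value that rests on few rows, from 16 (FOXP2 clone 3) to 41 (FOXP2-CPED1 clone 3). Both mitochondrial gene rows read 0 in FOXP2-CPED1 clone 3, FOXP2 clone 2 and FOXP2 clone 4, which are clones with high, low and high Cped1. The part of these measures in the results was not tested. In these bulk cultures, fewer cells with a transcript and less of it per cell cannot be told apart. Of 10 fibroblast markers, 9 had a row. Their summed level ran from 7230 to 10238 RPKM in FOXP2-CPED1 clones and from 6993 to 9400 RPKM in FOXP2 clones. In controls it ran from 9940 to 10185 RPKM. The 2 epithelial markers with a row summed to at most 5.19 RPKM and the 1 endothelial marker to at most 0.536 RPKM. Of 6 blood and immune and 6 neural markers, 0 had a row of 1 gene.

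The wider stretch of chromosome 6, from Foxp2 to Slc13a1, was described from a list of 28 genes. Of these, 15 had a row, the last of them Fam3c, and 13 were tested. Against the controls, 0 of 13 passed with FOXP2-CPED1 (median log2 difference -0.05, beside 0.00 over all rows) and 0 with FOXP2 (0.05, beside 0.02). Between the constructs 0 passed (-0.11, beside -0.01), and 1 of 13 was on the higher side in FOXP2-CPED1. How many of all tested rows were lower there was not counted, and the 13 genes share the same clones. Of all tested rows, 0.35%, 0.436% and 0% passed in these comparisons, so 0 of 13 would be the usual count. The smallest p against the controls was that of Cav1, the caveolin that coats membrane pits called caveolae, which averaged 379.0 ± 79.2 RPKM in FOXP2-CPED1 clones, 311.6 ± 20.6 RPKM in FOXP2 clones and 539.4 ± 3.24 RPKM in controls. Its log2 difference with FOXP2 was -0.79 ± 0.17 (limma adjusted p = 0.118) and with FOXP2-CPED1 -0.53 ± 0.17 (0.454). It was lower in 4 of 4 FOXP2-CPED1 clones and 4 of 4 FOXP2 clones than in either control. How many of all tested rows separate in this way was not counted, so this does not set Cav1 apart.

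FOXP2 clone 4 had the highest level among the 8 clones for 7 of the 15 genes: Foxp2, Mdfic, Tfec, Met, Capza2, Cttnbp2 and Tspan12. Of these, Foxp2 and Cttnbp2 did not meet the filter for testing. How often FOXP2 clone 4 was the highest over all tested rows was not counted. The mouse Foxp2 row was 1.02 RPKM there, against 0.145 to 0.365 RPKM in the other FOXP2 clones, 0.0674 to 0.330 RPKM in the FOXP2-CPED1 clones, and 0.0798 RPKM in parental and 0.0785 RPKM in vector cells. FOXP2-CPED1 clone 3, at 0.0674 RPKM, was below both controls. As with Cped1, this row may or may not count reads of the construct, and it does not check the labels. Tfec, a transcription factor of the MiT family, stood at 5.58 RPKM in FOXP2 clone 4 and at 0.464 to 1.61 RPKM in the other FOXP2 clones, beside 0.0243 to 0.373 RPKM in FOXP2-CPED1 clones and 0.115 RPKM in parental and 0.0289 RPKM in vector cells. In FOXP2 clone 4 the median log2 difference from the controls was 0.15 over the 601 tested rows of chromosome 6 (375 higher and 224 lower), beside -0.01 over all tested rows. In the other 7 clones the chromosome 6 median was below 0, at -0.15, -0.03, -0.16 and -0.05 in FOXP2-CPED1 clones 1 to 4 and at -0.11, -0.09 and -0.21 in FOXP2 clones 1 to 3. Over the 12 tested genes of the list other than Cped1, the median was -0.20, -0.14, -0.004 and 0.10 in FOXP2-CPED1 clones 1 to 4. In FOXP2 clones 1 to 4 it was 0.10, 0.21, -0.20 and 0.17, so FOXP2 clone 4 was not the highest. Other chromosomes were not looked at in this way. Cped1 in FOXP2 clone 4 (25.8 RPKM) was between the controls.

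**Figure D5:**
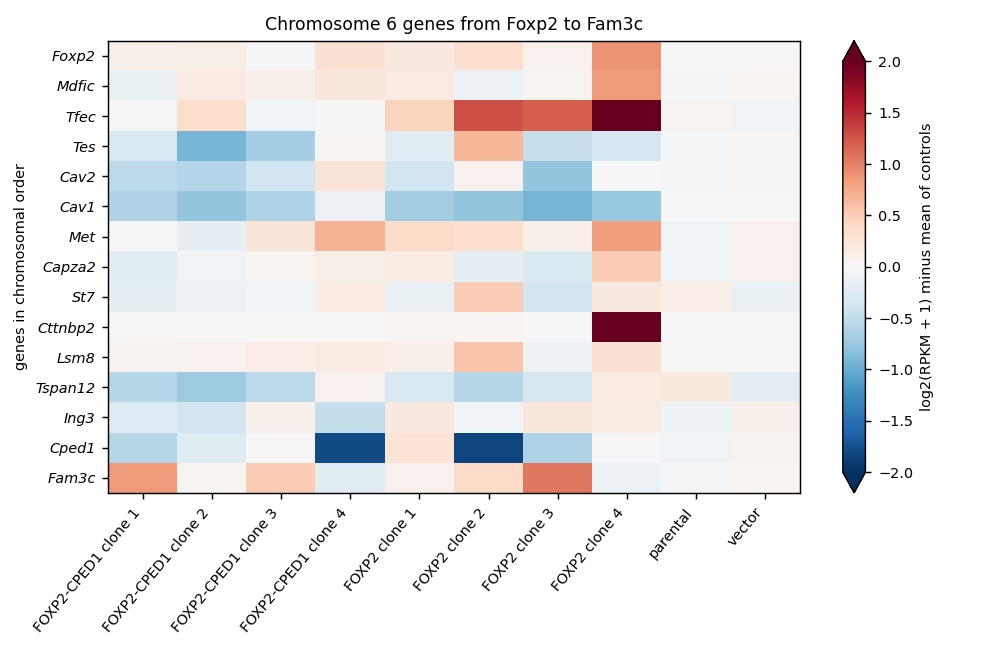
Difference of log2(RPKM + 1) from the mean of the 2 controls, by library (columns: FOXP2-CPED1 clones, FOXP2 clones, controls) and gene in chromosomal order (rows), with colours ending at 2 in either direction. Cped1 is dark blue (low) in FOXP2-CPED1 clone 4 and FOXP2 clone 2, where Ing3 above it and Fam3c under it are pale, and FOXP2 clone 4 is high in Foxp2, Mdfic, Tfec, Met and Cttnbp2.

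Genes that work with the members were counted too. Of the Wnt receptor and Norrin list, which holds the partners of Tspan12 and of Wnt ligands, 13 of 17 genes were tested. Fzd7, a Frizzled receptor for Wnt ligands, was the one call against the controls: with all clones it fell by 0.83 on the log2 scale (SE 0.15, limma adjusted p = 0.0418), and it averaged 44.1 ± 7.75 RPKM in FOXP2-CPED1 clones, 46.0 ± 2.68 RPKM in FOXP2 clones and 80.3 ± 0.373 RPKM in controls. Of all tested rows, 0.537% passed in that comparison. All 8 clones (36.5 to 54.3 RPKM of Fzd7) lay under both controls, but the share of all tested rows that do so was not counted. With 1 library left out, its limma adjusted p ran from 0.0171 without FOXP2-CPED1 clone 4 to 0.584 without the vector library, and 9 of those 10 fits ended the call, while the log2 difference stayed between -0.88 and -0.79. The call also ended with a pseudocount of 0.1 (limma adjusted p = 0.0519) or 0.25 (0.0515), with no trend (0.0537) and without the libraries whose mitochondrial rows read 0 (0.163). With each construct alone the adjusted p was 0.0678 (FOXP2-CPED1) and 0.0900 (FOXP2). Fzd4, the receptor that TSPAN12 assists, was low throughout, at 2.26 ± 0.616 RPKM in FOXP2-CPED1 clones, 2.06 ± 0.442 RPKM in FOXP2 clones and 2.02 ± 0.119 RPKM in controls.

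Of 19 Wnt ligands, 4 had a row and 3 were tested: 0 passed in any comparison. The most abundant, Wnt5a, which acts mostly outside the beta-catenin route, averaged 10.8 ± 1.41 RPKM in FOXP2-CPED1 clones, 10.5 ± 3.01 RPKM in FOXP2 clones and 8.40 ± 0.462 RPKM in controls. The 5 tested Wnt/beta-catenin targets had 0 calls. All had negative differences with all clones (median -0.11, beside 0.01 over all rows), but the share of all rows that did was not counted. Myc, a driver of cell growth, had a log2 difference of -1.04 ± 0.38 (limma adjusted p = 0.417). Lef1, a partner of beta-catenin, had one of -0.19 ± 0.18 (limma adjusted p = 0.811). Of the NuA4/TIP60 complex and the other ING proteins, 20 of 22 were tested and 0 passed in any comparison, with a median log2 difference of 0.00 with all clones. Its smallest p-values there were those of Actl6a, an actin-like subunit (0.44 ± 0.19, limma adjusted p = 0.533), and Morf4l2 (0.30 ± 0.14, 0.556). The 13 tested tetraspanins (0 calls, median -0.11), the 5 PC-esterase relatives (0 calls, median 0.02), the 6 osteoblast and bone matrix genes (0 calls, median 0.16) and the 2 FAM3 genes (0 calls, median 0.23) gave no gene past the threshold in any comparison either. Among them the smallest p-values with all clones were those of Tspan32 (-0.97 ± 0.36, limma adjusted p = 0.432), Cd9 (-0.57 ± 0.31, 0.635) and Tnfrsf11b, which encodes the RANKL decoy osteoprotegerin (0.97 ± 0.43, 0.541). Over all tested rows, 0.35% to 0.537% passed against the controls and 0% between the constructs. At those shares lists of this size would mostly give 0 calls, so the counts do not set these families apart.

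A few of these genes did move with Cped1 over the 8 clones. Rising with it were Lrp6, the Wnt co-receptor (r = 0.92, limma adjusted p = 0.0321), and the tetraspanins Tspan17 (r = 0.95, limma adjusted p = 0.0321) and Cd82 (r = 0.93, limma adjusted p = 0.0378). Ruvbl2, an ATPase shared by the TIP60 complex and other remodellers, fell as it rose (r = -0.94, limma adjusted p = 0.0321). That is 1 of 13 Wnt receptor genes, 2 of 13 tetraspanins and 1 of 20 NuA4/TIP60 genes, beside the 2.94% of all rows, and these calls share the instability of that count. Lrp6 stood at 12.3, 21.2, 17.4 and 9.82 RPKM in FOXP2-CPED1 clones 1 to 4 and at 21.4, 7.96, 18.0 and 21.0 RPKM in FOXP2 clones 1 to 4, low in the same pair of clones as Cped1.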

How the data were processed

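RNA from 10 NIH3T3 cultures was sequenced. Trizol extraction and an NEBNext Ultra RNA library kit are given per the labels' protocols. The authors deposited 1 table of RPKM values with a column per library. HISAT2, StringTie and mm9 are named in the submitters' processing notes; versions, annotation, strand setting and filters: not given in the sources used here. Absolute depth is unknown; steps among values under 0.3 RPKM gave only relative depth, and no counting interval was computed.

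Values were taken as log2(RPKM + 1). Rows that name a gene and reach 1 RPKM in at least 2 libraries were tested (12842 of 18430); 3581 rows name no gene (3.37 to 4.54% of the summed RPKM). Limma 3.58.1 (R 4.3.3, trend on the mean, two-sided, Benjamini-Hochberg over all tested rows, threshold 0.05) was fitted with 3 arms to all 10 libraries, and slopes on a member's level were fitted over the 8 clones. The fits were tested on simulated data. Correlations were tested by exact permutation of the clones. Fold changes on this scale understate those of low genes. Of 13266 single-gene identifiers, 13232 matched GENCODE M21 on GRCm38, used for names, chromosome and order only, as the files use mm9. One name of the chromosome 6 list, which the annotation places on another chromosome, was dropped. For lists and markers, only rows of 1 gene were used, and the 987 joined rows that name a gene were left out. Lack of a row is therefore no measure of lack of expression.

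Members and lists were chosen with earlier results of these data known. Named genes were the members, Foxp2, the 5 highest and 5 lowest r with Cped1 among single genes with a mean of at least 2 RPKM, and list members past a threshold or with the smallest p. Clones of both constructs carry the same numbers in the labels, which name the clones only. Fzd4, Tfec and the genes highest in FOXP2 clone 4 were named after their values were seen.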

Additional observations from a re-analysis of the deposited data

Results flagged for a closer look

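In groups of 4 clones, 25 genes of the report were looked at for a clone far from the others (50 groups). Chance picks out about 1 in 20 such groups. That rate does not apply to the genes chosen by their r with Cped1, as the choice itself favours clones that stand apart. None of the 4 members had one. Cttnbp2, a cortactin-binding protein, stood at 4.24 RPKM in FOXP2 clone 4 and at most at 0.0372 RPKM in the other FOXP2 clones. In FOXP2-CPED1 clone 4 it stood at 0.0108 RPKM, while the other FOXP2-CPED1 clones and both controls were listed at 0. Tes stood at 60.5 RPKM in FOXP2 clone 2, where the next FOXP2 clone had 32.3 RPKM. Among the genes chosen for their likeness to Cped1, Gatad1 (249 RPKM) and Eif4e (96.2 RPKM) stood apart in FOXP2 clone 2 and Cluh (38.7 RPKM) in FOXP2-CPED1 clone 4, the clones with low Cped1.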

How the results depend on the processing

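In none of the alternatives run did a member pass the threshold or a neighbour follow Cped1: 314 of 324 alternative log2 differences and 39 of 51 alternative correlations kept their direction and stayed on the same side of the threshold, and the others changed sign. With library quality weights the log2 difference was 0.15 for Cped1 (FOXP2 against control), 0.32 for Fam3c (between constructs) and 0.014 for Ing3 (all clones). Leaving out each library in turn gave -0.54 to 0.27 for Cped1 and -0.24 to 0.18 for Fam3c between constructs, and -0.17 to 0.045 for Ing3 with all clones. Correlations with Cped1 changed sign over all 10 libraries (0.078 for Tspan12, -0.075 for Fam3c), by rank (0.33 and -0.14) and without the low pair of clones (0.34 and -0.80). Leaving out 1 clone gave r from -0.36 to 0.38 for Tspan12, 0.25 to 0.69 for Ing3 and -0.35 to 0.18 for Fam3c. With the clone number as a replicate block, r was 0.0022 for Tspan12, 0.43 for Ing3 and -0.51 for Fam3c, and 0 rows passed between the constructs; same-numbered clones deviated together in 2 of 4 pairs and only clone 4 matched best with its own number, so the numbers are not taken to pair the clones. The cause of these changes was not tested.

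Counts of rows past the threshold moved more. Against the controls, 56 rows passed with FOXP2 and 45 with FOXP2-CPED1; these were 37 and 28 with a pseudocount of 0.1, and 2095 and 929 with library quality weights, which gave 1842 for all clones (69 otherwise) and 4 between constructs (0 otherwise). FOXP2 gave 9 with only its arm and the controls fitted, and 23 without the libraries with mitochondrial rows at 0. Leaving out 1 library gave 2 to 64 (FOXP2), 0 to 57 (FOXP2-CPED1), 2 to 82 (all clones) and 0 to 1 (between constructs); the lone control library is then assumed to vary like the clones. Of rows following Cped1, 377 became 235 with quantile normalization, 1089 over all 10 libraries, 0 centred within constructs, 0 without the clones with mitochondrial rows at 0 and 0 to 1367 without 1 clone. With RPKM only, depth and its limits are unknown. The correlation was not run without these clones, which leaves 5.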
